A study of Mus musculus with 9 samples.

Results

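Transcript levels of 50 genes of the G2 phase and of mitosis were followed in RNA from cultured mouse fibroblasts. The genes were listed by name for their roles in cell division, with earlier results of these data known, and each was found by its symbol in a count table of 51912 genes. Of the 50 genes, 49 had enough reads to be tested. The exception was Cks2, a small protein that binds cyclin-dependent kinases, with 1 to 11 read counts per library. The members fell into 6 roles: 11 cyclins, kinases and their regulators, 8 genes of the spindle checkpoint and of anaphase, 10 kinesin motors, 6 centromere and kinetochore genes, 6 genes of the chromosomal passenger complex and of cytokinesis, and 9 spindle and chromosome factors.

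The series held 9 libraries in 3 groups of 3. Normal fibroblasts (NF) and cancer-associated fibroblasts (CAF), the fibroblasts of tumour stroma, were labelled wild type, and the third group was cancer-associated fibroblasts with the genotype label beta-catenin -/- (bcatKO_CAF). All groups were of strain C57BL/6 and grew in DMEM with FBS and P/S, with no other agent named. Tumour, site of origin, sex, passage, number of animals and the way the gene was deleted were not stated in the labels. The labels also do not say whether replicates were separate cultures or animals, and p-values therefore describe the scatter of these libraries alone, which may be only technical.

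Entry into mitosis is driven by cyclin-dependent kinase 1 bound to A- and B-type cyclins, and the kinase is switched on when Cdc25 phosphatases remove inhibitory phosphates. The spindle checkpoint then delays anaphase until every kinetochore is attached, by holding back Cdc20, the activator of the anaphase-promoting complex. Transcripts of most of these proteins accumulate together late in the cell cycle, under MuvB complexes with B-Myb and FoxM1, and are held down in resting cells by the DREAM complex. In a bulk sample, a lower level from fewer dividing cells and from less transcript per cell cannot be told apart.

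DREAM and MuvB complexes bind a short promoter element, the cell cycle genes homology region (CHR), and the trimeric factor NF-Y binds CCAAT boxes near it. The sequences below are RefSeq promoter stretches (GRCm38.p6) of 150 bases, from 100 before the transcription start to 50 after it. They are shown because they belong to the members called in both main comparisons, or to the most abundant member of a role, among those with a promoter in the table. Capitals mark CHR letters (TTTGAA or TTCGAA) and CCAAT boxes (CCAAT), each on either strand, so that TTCAAA and ATTGG are their reverse complements. The first set is of members higher in CAF than in both other groups.
Cdk1 (chr10:69352863-69353012, minus strand): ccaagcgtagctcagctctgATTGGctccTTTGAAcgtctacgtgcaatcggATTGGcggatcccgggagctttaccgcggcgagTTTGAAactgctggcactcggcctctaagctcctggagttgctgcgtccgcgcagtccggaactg
Plk1 (chr7:122159335-122159484, plus strand): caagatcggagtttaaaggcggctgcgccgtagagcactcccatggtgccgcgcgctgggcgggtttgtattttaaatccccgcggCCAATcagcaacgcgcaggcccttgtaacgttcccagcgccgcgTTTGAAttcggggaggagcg
Cdc20 (chr4:118437294-118437443, minus strand): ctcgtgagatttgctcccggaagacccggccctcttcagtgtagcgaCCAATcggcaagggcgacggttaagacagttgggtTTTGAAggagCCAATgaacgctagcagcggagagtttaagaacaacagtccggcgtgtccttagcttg
Birc5 (chr11:117849137-117849286, plus strand): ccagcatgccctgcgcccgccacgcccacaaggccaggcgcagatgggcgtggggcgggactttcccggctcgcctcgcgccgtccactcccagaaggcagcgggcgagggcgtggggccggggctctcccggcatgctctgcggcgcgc
Cdca3 (chr6:124830076-124830225, plus strand): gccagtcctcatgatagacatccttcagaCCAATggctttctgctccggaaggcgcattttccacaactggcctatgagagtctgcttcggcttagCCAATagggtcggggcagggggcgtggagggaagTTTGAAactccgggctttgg

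The next pair belongs to the members that were lower in CAF than in both other groups.
Cdc25b (chr2:131186848-131186997, plus strand): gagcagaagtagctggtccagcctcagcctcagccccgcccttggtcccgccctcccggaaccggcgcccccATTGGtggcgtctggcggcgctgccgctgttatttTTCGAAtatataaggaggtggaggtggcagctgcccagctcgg
Anp32e (chr3:95929157-95929306, plus strand): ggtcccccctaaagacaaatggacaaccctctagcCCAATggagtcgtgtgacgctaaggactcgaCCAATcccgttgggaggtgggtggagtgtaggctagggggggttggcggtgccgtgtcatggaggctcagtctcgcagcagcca

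The last set holds the most abundant members of the other roles, of which Kif4 alone was called higher in CAF than in NF.
Bub3 (chr7:131560270-131560419, plus strand): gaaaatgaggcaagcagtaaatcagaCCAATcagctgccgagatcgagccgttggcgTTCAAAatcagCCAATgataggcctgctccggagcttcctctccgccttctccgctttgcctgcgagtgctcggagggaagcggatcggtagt
Kif4 (chrX:100625965-100626114, plus strand): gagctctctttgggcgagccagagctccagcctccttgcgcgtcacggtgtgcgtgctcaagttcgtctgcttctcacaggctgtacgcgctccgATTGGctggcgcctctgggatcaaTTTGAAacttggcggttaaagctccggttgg
Cenpe (chr3:135212463-135212612, plus strand): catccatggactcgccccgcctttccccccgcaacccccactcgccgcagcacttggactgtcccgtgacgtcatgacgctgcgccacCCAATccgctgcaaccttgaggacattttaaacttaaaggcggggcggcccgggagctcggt
Anln (chr9:22389157-22389306, minus strand): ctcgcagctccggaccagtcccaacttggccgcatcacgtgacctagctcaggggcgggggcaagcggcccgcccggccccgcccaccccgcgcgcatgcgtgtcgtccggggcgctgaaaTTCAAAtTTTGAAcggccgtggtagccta
Top2a (chr11:99024140-99024289, minus strand): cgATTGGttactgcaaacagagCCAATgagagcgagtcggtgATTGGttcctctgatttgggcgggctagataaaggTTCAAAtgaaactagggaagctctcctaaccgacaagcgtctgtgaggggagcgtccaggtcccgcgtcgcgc

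Promoters of 300 bases (250 before the start and 50 after it) were available for 44 of the 50 members. CHR letters were found in 34 of these 44 promoters (77.3%), against 5254 of all 27025 promoters in the table (19.4%). The letters lay within 50 bases of the start in 29 members (65.9%), against 5.29% of all promoters. That window was chosen after the positions were seen. CCAAT boxes were found in 33 members (75%) and 37.9% of all promoters, and both elements in 29 members (65.9%) and 7.7% of all promoters. CHR letters were in 17 of 19 promoters of members called higher in CAF than in NF and in 17 of the other 25. Cdc25b, which was lower in CAF, held TTCGAA 8 bases after the start, while Birc5, which was higher, held neither element in its 300 bases. A match is a run of letters and not a shown binding site, and no match says only that these letters are not in this window.

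**Figure D1:**
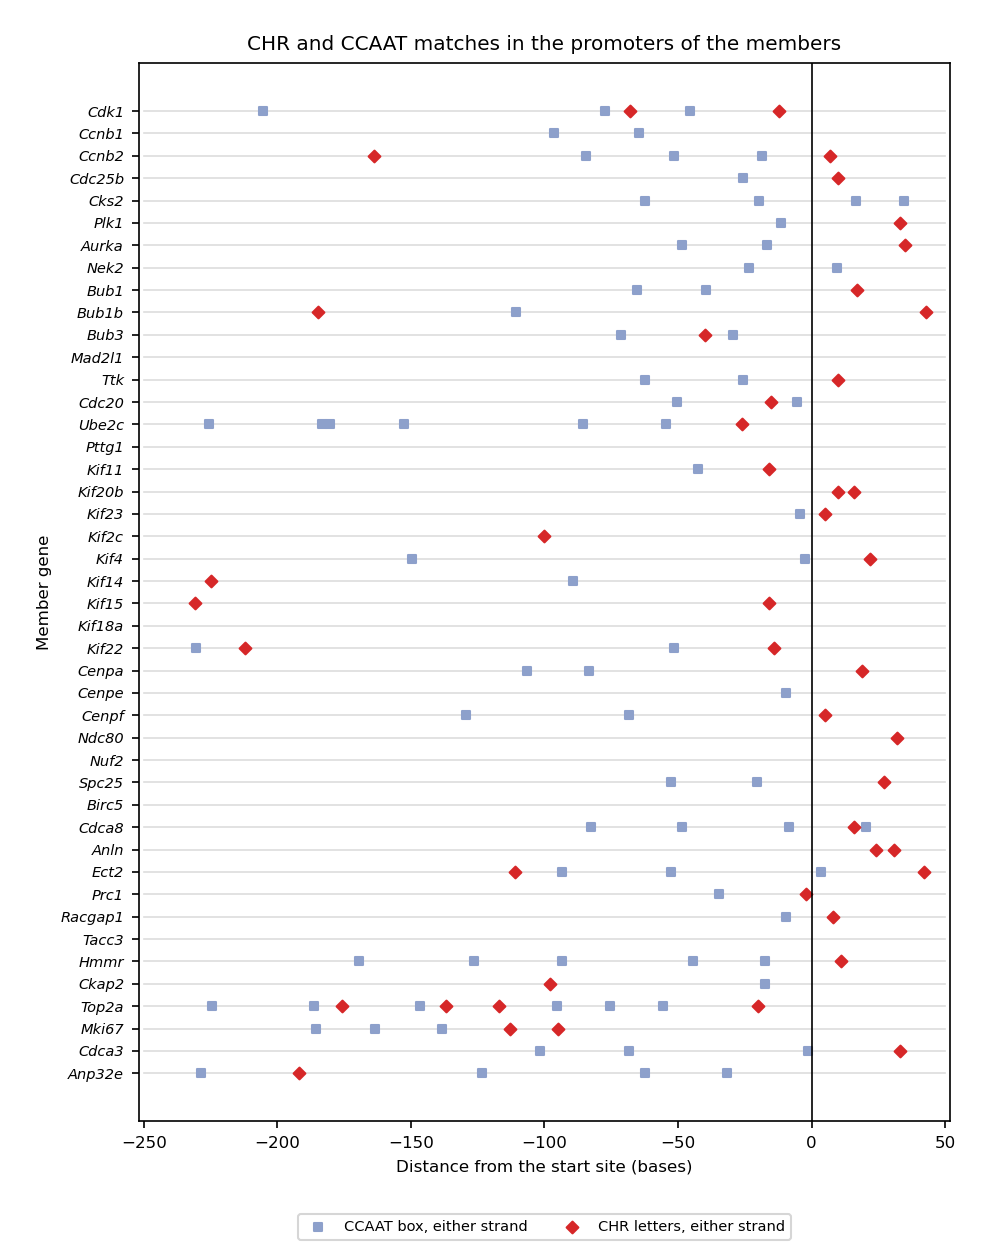
Positions of CHR letters (diamonds) and CCAAT boxes (squares), each on either strand, in the promoters of 44 members, by distance from the transcription start in bases. Most diamonds lie within 50 bases of the start (29 members), and squares lie mainly before the start.

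The 9 libraries held 15433810 to 21893574 counts each. Vim, an intermediate filament gene of mesenchymal cells, was at 3817 to 5796 CPM in every library, where CPM are read counts brought to one common library size by the trimmed mean of M values. Other fibroblast markers did not bear out the label evenly. The summed level of 11 fibroblast markers, Vim among them, was 34120 to 52900 CPM in CAF, 4986 to 6393 in NF and 6613 to 7432 in bcatKO_CAF. Vim alone made up most of this sum in every NF and bcatKO_CAF library. Thy1, a fibroblast surface protein, was at 1755 to 2187 CPM in CAF and at most 0.634 CPM in each of the other 6 libraries. Markers of other cells were low in sum but not equal: 7 leukocyte markers, of which the macrophage gene Cd68 was the main part in NF and bcatKO_CAF, summed to 23.4 to 41.8 CPM in NF, 3.44 to 5.88 in CAF and 18.6 to 24.4 in bcatKO_CAF, and 8 keratinocyte and epithelial markers to 0.823 to 4.52, 6.61 to 21.2 and 0.577 to 0.986 in the same order of groups. The sums were 1.96 to 2.56, 7.83 to 16.4 and 1.16 to 1.35 CPM for 6 endothelial markers and 9.72 to 15.9, 7.17 to 10.4 and 12.9 to 15.2 CPM for 7 melanocyte markers. Pericyte and smooth muscle markers, 8 in number, summed to 160 to 812, 312 to 432 and 547 to 1136 CPM. The part of these cell markers in the results was not tested. Ctnnb1, the gene of beta-catenin, was transcribed in every library, at 668, 637 and 627 CPM in bcatKO_CAF, 855, 882 and 858 in CAF and 713, 799 and 669 in NF. Reads outside a deleted part are counted too, and the genotype label could not be checked from it.

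Among the mitotic genes, NF replicate 1 stood apart from NF replicates 2 and 3. It was above both in 46 of 49 members, against 39.2% of all tested genes. The ratio of its level to the mean of the other 2 NF libraries had a median of 2.06 over members and 0.985 over all tested genes. The ratio was largest for Cdc25c, a phosphatase that activates Cdk1, at 4.69, for Nek2, a centrosome kinase, at 4.19, and for the B-type cyclin Ccnb2 at 3.92. It was 1.01 for Cdk1, 1.08 for Cdca3, 1.08 for Bub3 and 0.829 for Anp32e. NF replicate 1 lay within the range of the 3 bcatKO_CAF libraries in 39 members, against 57.6% of all tested genes. It also differed in markers: the matrix proteoglycan Dcn was at 17.0 CPM in NF replicate 1, 379 and 252 in NF replicates 2 and 3 and 6.06 to 90.0 in bcatKO_CAF, and the pericyte proteoglycan Cspg4 was at 803 CPM in it, 246 and 151 CPM in the other NF libraries and 540 to 1131 CPM in bcatKO_CAF. Whether this library bears its right label was not tested, and results are given with and without it. It was singled out by its levels in these same genes. Leaving it out lowers the NF level of most members and narrows the spread used in every comparison. Calls and p-values without it are therefore a description and no separate support.

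**Figure D2:**
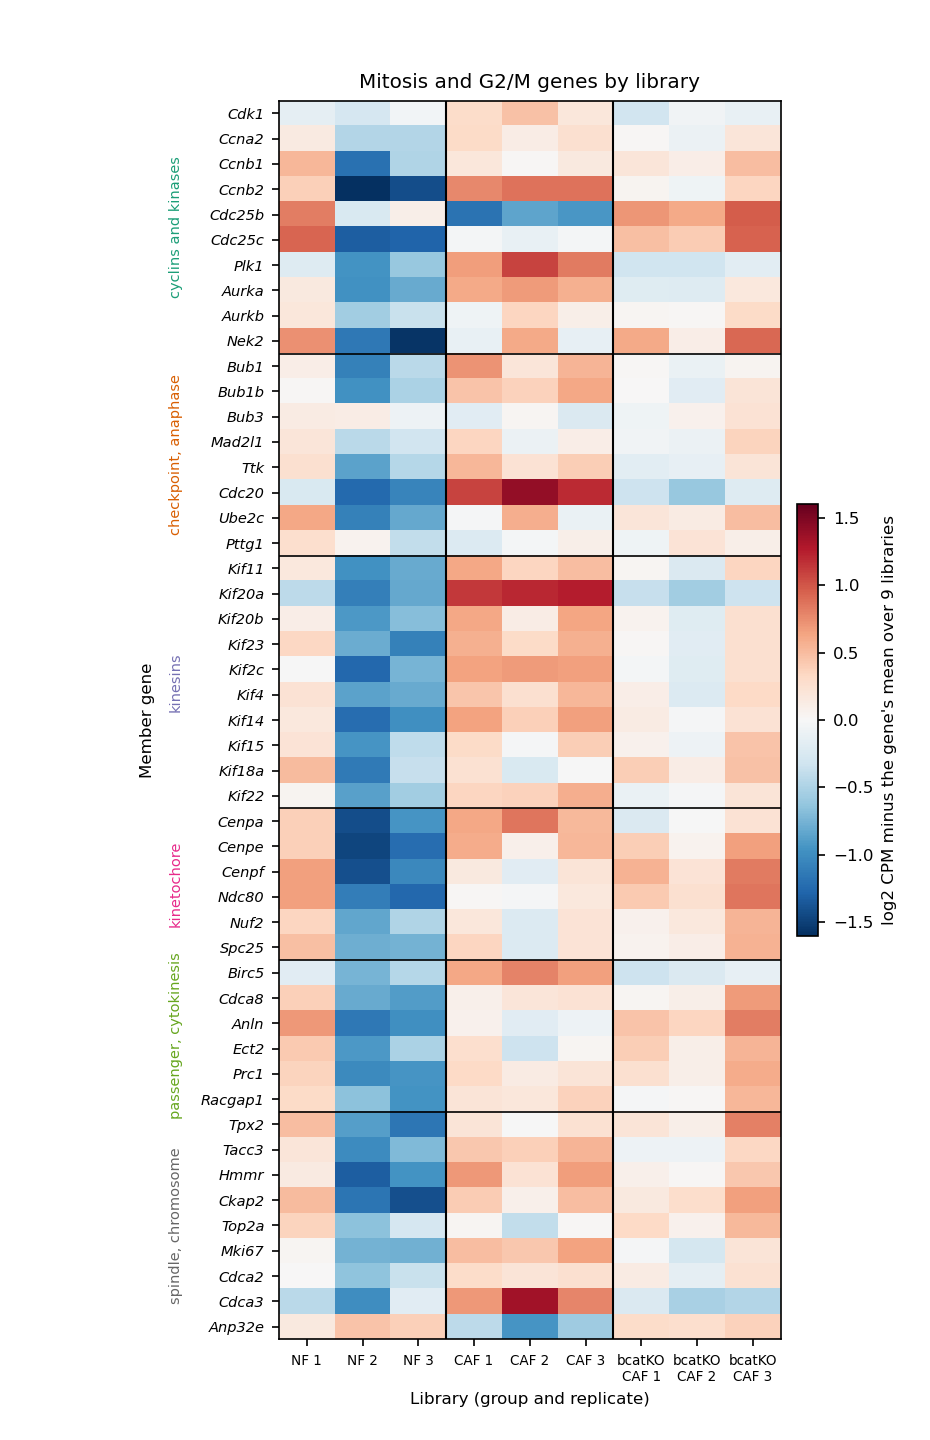
Level of each of 49 tested members in each of 9 libraries, as log2 CPM minus the gene's mean over the 9 libraries (red higher, blue lower), with genes ordered by role. The 3 CAF columns are mostly red, NF replicates 2 and 3 mostly blue, and NF replicate 1 resembles the bcatKO_CAF columns; Cdc25b and Anp32e show the opposite order in CAF.

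Compared with NF, CAF held more transcript of a large part of the mitotic genes. Of 49 members, 21 (42.9%) were higher in CAF at an adjusted p under 0.05, where 20.0% of all 14314 tested genes were higher, and 2 (4.08%), Cdc25b and Anp32e, were lower, where 19.8% of all genes were lower. In either direction 46.9% of members and 39.8% of all tested genes passed. The median log2 fold change of the members was 0.59, against -0.04 over all tested genes. The kinesin motors had the most calls, with 7 of 10 higher, and the centromere and kinetochore genes and the passenger and cytokinesis genes had the fewest, with 1 of 6 each. All 3 CAF libraries lay above all 3 NF libraries in 21 members, against 24.6% of all tested genes.

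The count of 21 rested on single libraries. Without NF replicate 1, 44 members were higher in CAF (89.8%, against 23.7% of all genes tested then), with a median log2 fold change of 1.22, and the 3 that were not called were Bub3, Pttg1 and Top2a. Leaving out CAF replicate 1 or 3, or NF replicate 2 or 3, left 11 members higher in each case, and with only the 6 NF and CAF libraries in the fit 10 were. The shares of all genes called higher in these fits are not given here, and the 20.0% above belongs to the fit of all 9 libraries. By role, leaving out single libraries gave 2 to 9 higher among cyclins and kinases, 2 to 6 among checkpoint genes, 3 to 10 among kinesins, 0 to 6 at the kinetochore, 1 to 6 in cytokinesis and 2 to 7 among spindle and chromosome factors, with the highest count without NF replicate 1 in each role. The calls of 10 higher members (Aurka, Birc5, Bub1b, Cdc20, Cdca3, Kif20a, Kif22, Kif2c, Mki67 and Plk1) and of both lower members held in all 16 alternative settings. The other 11 (Bub1, Ccnb2, Cdca2, Cdk1, Cenpa, Hmmr, Kif11, Kif14, Kif20b, Kif4 and Tacc3) lost their call in 4 to 11 of the settings, with no change of direction.

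Between bcatKO_CAF and CAF, most mitotic genes did not pass the test. Of 49 members, 6 (12.2%) were lower in bcatKO_CAF, against 22.7% of all tested genes: Cdk1, Plk1, Cdc20, Kif20a, Birc5 and Cdca3. Cdc25b and Anp32e were higher (4.08%, against 21.4% of all tested genes). The share of members called was below the share of all genes in both directions, and the median log2 fold change of -0.07 over members was near the -0.01 over all genes; with total counts as the scaling, the members' median was 0.06 and that of all genes 0.12. All 3 bcatKO_CAF libraries lay below all 3 CAF libraries in 18 members, against 33.3% of all tested genes, and above them in 7, against 32.4%. Without NF replicate 1, which is in neither group compared but enters the shared spread, the scaling and the filter, 16 members were lower (32.7%, against 27.4% of all genes) and 6 higher (12.2%, against 25.8%). With only the 6 libraries compared, 17 were lower and 6 higher, and the shares of all genes in that fit are not given here. The members that joined the lower calls without NF replicate 1 were Aurka, Bub1, Bub1b, Ccnb2, Cenpa, Kif14, Kif22, Kif23, Kif2c and Mki67, and those that joined the higher calls were Anln, Cdc25c, Cenpf and Ndc80.

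The comparisons of CAF with NF and of bcatKO_CAF with CAF share the 3 CAF libraries, so that a CAF library that is high or low moves both. The values of both are therefore set side by side below. All 3 CAF libraries lay above all 6 others in 16 members, against 23.1% of all tested genes, and below all 6 in 2 members, against 21.1%.

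**Figure D3:**
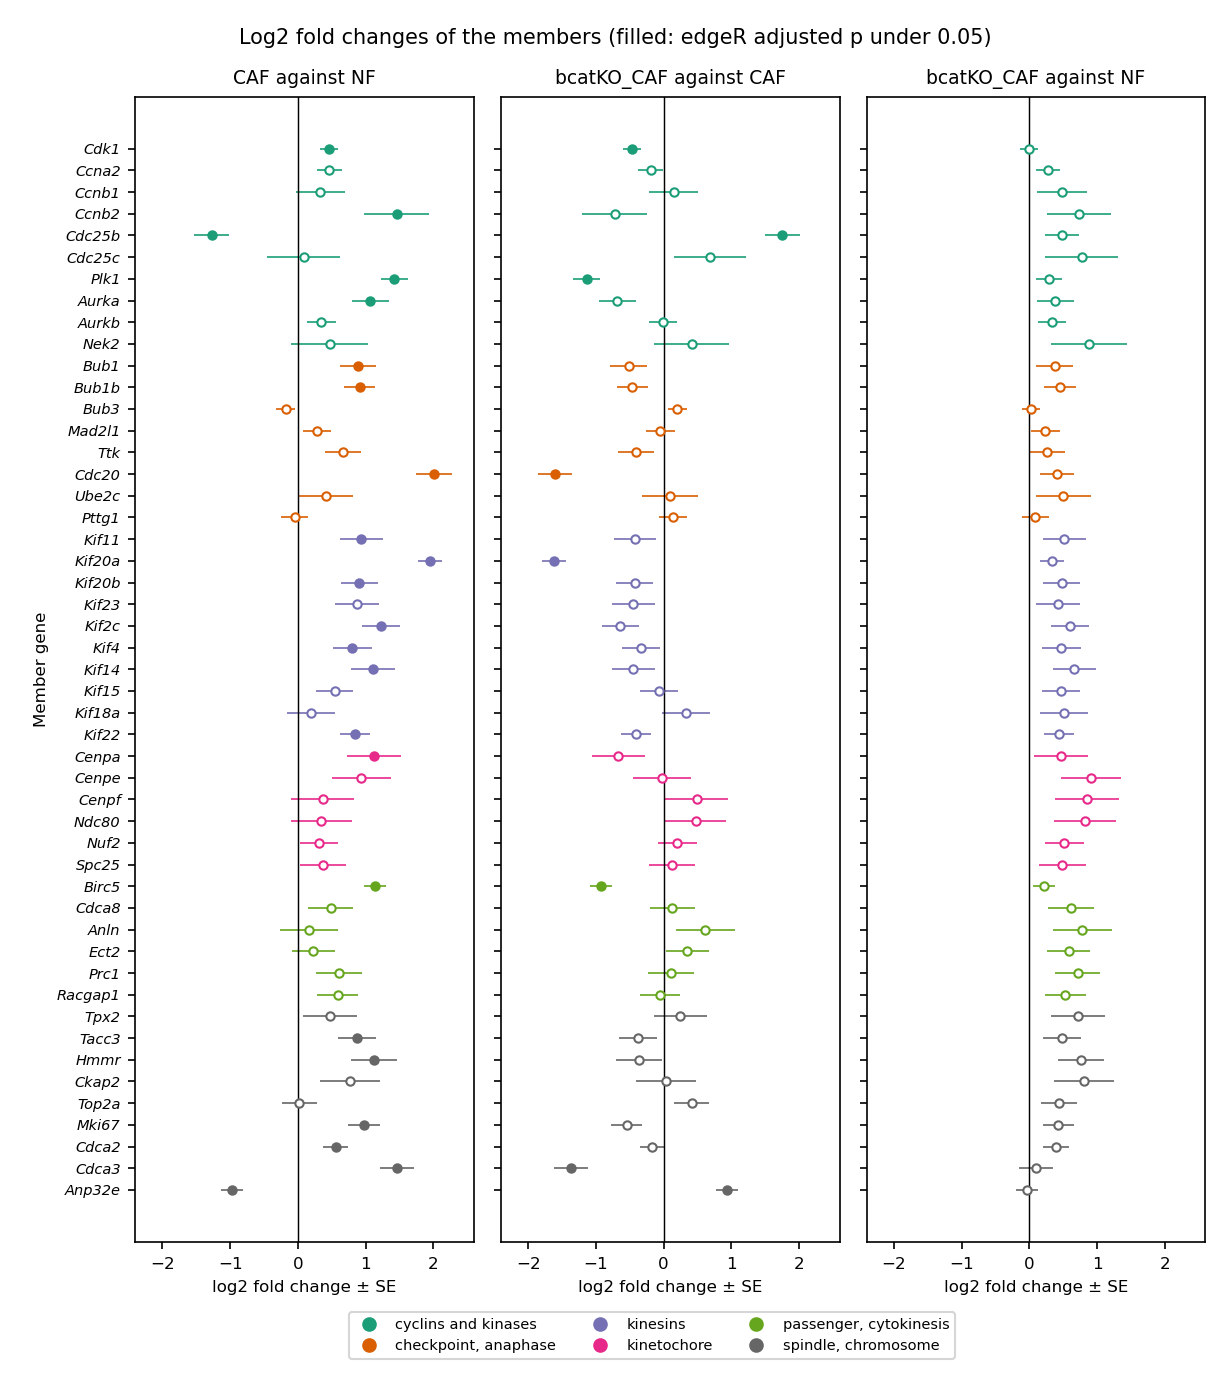
Log2 fold change with its SE for each of 49 tested members in the 3 comparisons, coloured by role, with filled points for an edgeR adjusted p under 0.05. The left panel has 21 filled points above 0 and 2 below, the middle panel 6 below 0 and 2 above, and the right panel none.

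Among cyclins, kinases and their regulators, 4 of 10 tested members were higher in CAF than in NF (Cdk1, Ccnb2, Plk1 and Aurka) and Cdc25b was lower. Plk1, the polo-like kinase that drives mitotic entry and spindle assembly, had 29.2, 17.5 and 22.3 CPM in the NF libraries, always listed by replicate, with 53.9, 71.3 and 60.0 CPM in CAF and 27.2, 27.1 and 30.0 CPM in bcatKO_CAF. All CAF libraries were above all others, and NF and bcatKO_CAF overlapped. Against NF the log2 fold change in CAF was 1.43 ± 0.20 (SE) (edgeR adjusted p = 0.000448) and -1.14 ± 0.20 for bcatKO_CAF against CAF (edgeR adjusted p = 0.00156), or 2.69-fold higher in CAF and 0.455 of the CAF level.

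Cdc25b, the phosphatase that starts activation of Cdk1 at the end of G2, had the opposite order. Its level was 101, 48.4 and 61.3 CPM in NF, 25.1, 31.9 and 30.0 CPM in CAF and 93.7, 87.1 and 112 CPM in bcatKO_CAF. The 3 CAF libraries were the lowest of the 9, and NF replicate 1 lay among the bcatKO_CAF values. Its log2 fold change in CAF was -1.27 ± 0.26 against NF (edgeR adjusted p = 0.00349) and 1.75 ± 0.26 for bcatKO_CAF against CAF (edgeR adjusted p = 0.000625). Cdc25c, its relative, was at 30.8, 6.48 and 6.64 CPM in NF, 15.7, 14.9 and 15.8 CPM in CAF and 22.4, 21.3 and 31.0 CPM in bcatKO_CAF, and passed neither test with all libraries, with adjusted p of 0.919 and 0.323 from the same edgeR fit. It passed both without NF replicate 1, at log2 fold changes of 1.25 ± 0.20 and 0.69 ± 0.17 (edgeR adjusted p = 0.000828 and 0.00736). The CAF levels of Cdc25c lay between NF replicate 1 and the other 2 NF libraries and below all bcatKO_CAF libraries.

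Cdk1, the kinase that the cyclins and phosphatases act on, was at 74.2, 67.8 and 79.5 CPM in NF, 99.9, 113 and 92.4 CPM in CAF and 66.4, 78.8 and 75.1 CPM in bcatKO_CAF. The CAF libraries were highest, by a smaller margin than for Plk1. CAF differed from NF by a log2 fold change of 0.46 ± 0.13 (edgeR adjusted p = 0.0211) and -0.47 ± 0.13 for bcatKO_CAF against CAF (edgeR adjusted p = 0.0182). The call against NF was lost without CAF replicate 2 or NF replicate 2 and in 3 other settings, with log2 fold changes from 0.30 to 0.53 over all settings, and the call between the CAF groups was lost without CAF replicate 2, bcatKO_CAF replicate 1 or bcatKO_CAF replicate 3 and in 2 other settings, with values from -0.54 to -0.33. Cyclins differed among themselves: Ccnb2 was at 47.6, 10.5 and 13.7 CPM in NF, 62.5, 67.1 and 67.2 CPM in CAF and 37.9, 34.9 and 46.4 CPM in bcatKO_CAF. NF replicate 1 was near the bcatKO_CAF libraries for this gene and the other 2 NF libraries far below. Its log2 fold change against NF was 1.46 ± 0.48 (edgeR adjusted p = 0.0382), which missed the threshold in 9 settings, among them without NF replicate 2 or 3, without any 1 CAF library and without bcatKO_CAF replicate 1 or 2, with log2 fold changes from 1.10 to 2.45. Ccna2, the A-type cyclin and the most abundant member of this role, was at 109, 70.7 and 71.0 CPM in NF, 122, 107 and 117 CPM in CAF and 99.2, 91.7 and 112 CPM in bcatKO_CAF, and its difference from NF did not pass (edgeR adjusted p = 0.0696).

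Aurka, the centrosome kinase Aurora A, was at 45.5, 20.9 and 23.3 CPM in NF, 62.2, 65.3 and 60.5 CPM in CAF and 35.7, 35.4 and 46.0 CPM in bcatKO_CAF. All CAF libraries were above the others, and the log2 fold change against NF was 1.07 ± 0.28 (edgeR adjusted p = 0.0122), while bcatKO_CAF against CAF gave -0.68 ± 0.27 (edgeR adjusted p = 0.0682, and 0.00225 without NF replicate 1). Aurkb, the passenger complex kinase Aurora B, was at 21 to 35.0 CPM in NF, 29.5 to 39.2 CPM in CAF and 31.2 to 38.0 CPM in bcatKO_CAF, so that the 3 groups overlapped. Ccnb1, the other B-type cyclin, was at 7.25 to 24.1 CPM in NF, 16.9 to 18.9 CPM in CAF and 17.9 to 23.4 CPM in bcatKO_CAF. Nek2 was the lowest tested member per length, at 0.834 CPM per kb of exon, with 1.11 to 5.45 CPM in NF and 3.01 to 5.02 CPM in CAF.

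In the spindle checkpoint and anaphase role, Bub1, Bub1b and Cdc20 were higher in CAF than in NF and the other 5 did not pass. Cdc20 had the largest fold change of the members for CAF against NF with all libraries in the fit; without NF replicate 1 that of Ccnb2 was larger, at a log2 value of 2.45 against 2.39. Cdc20 was at 29.6, 14.9 and 16.9 CPM in NF, 74.2, 93.0 and 80.2 CPM in CAF and 28.0, 23.0 and 30.5 CPM in bcatKO_CAF, with every CAF library above every other. The log2 fold change was 2.01 ± 0.26 against NF (edgeR adjusted p = 0.000276), a 4.03-fold difference, and -1.60 ± 0.26 for bcatKO_CAF against CAF (edgeR adjusted p = 0.000948), which is 0.330 of the CAF level. Bub1b, the checkpoint protein BubR1, was at 53.0, 26.9 and 36.9 CPM in NF, 71.8, 67.5 and 80.5 CPM in CAF and 52.6, 46.5 and 60.6 CPM in bcatKO_CAF. CAF was highest for Bub1b too, at a log2 fold change of 0.91 ± 0.23 against NF (edgeR adjusted p = 0.0115), and -0.46 ± 0.23 in bcatKO_CAF against CAF did not pass (edgeR adjusted p = 0.132) unless NF replicate 1 was left out (edgeR adjusted p = 0.0297).

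The checkpoint and anaphase genes that did not pass include partners of BubR1. Bub3, which carries Bub1 and BubR1 to kinetochores, was at 133, 132 and 115 CPM in NF, 107, 124 and 104 CPM in CAF and 116, 127 and 143 CPM in bcatKO_CAF. The groups overlapped, and the log2 fold change against NF was -0.18 ± 0.14 (edgeR adjusted p = 0.326). Pttg1, the separase inhibitor securin, was at 10.9 to 17.2 CPM in NF, 12.3 to 15.2 CPM in CAF and 13.6 to 16.7 CPM in bcatKO_CAF. Mad2l1, the checkpoint protein Mad2, was at 28.5 to 44.0 CPM in NF and 36.1 to 48.9 CPM in CAF. Ube2c, the ubiquitin-conjugating enzyme of the anaphase-promoting complex, was at 75.6, 23.4 and 28.0 CPM in NF, 48.5, 74.0 and 45.9 CPM in CAF and 56.4, 54.0 and 69.5 CPM in bcatKO_CAF, with NF replicate 1 the highest of the 9. Bub1, a checkpoint kinase that was called, was at 19.7 to 45.1 CPM in NF and 47.7 to 68.9 CPM in CAF, and Ttk, the kinase Mps1, at 10.6 to 22.9 CPM in NF and 22.6 to 27.7 CPM in CAF (edgeR adjusted p = 0.0716). The call of Bub1 was lost without CAF replicate 1, CAF replicate 3 or NF replicate 3, with log2 fold changes from 0.63 to 1.24 over all settings.

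**Figure D4:**
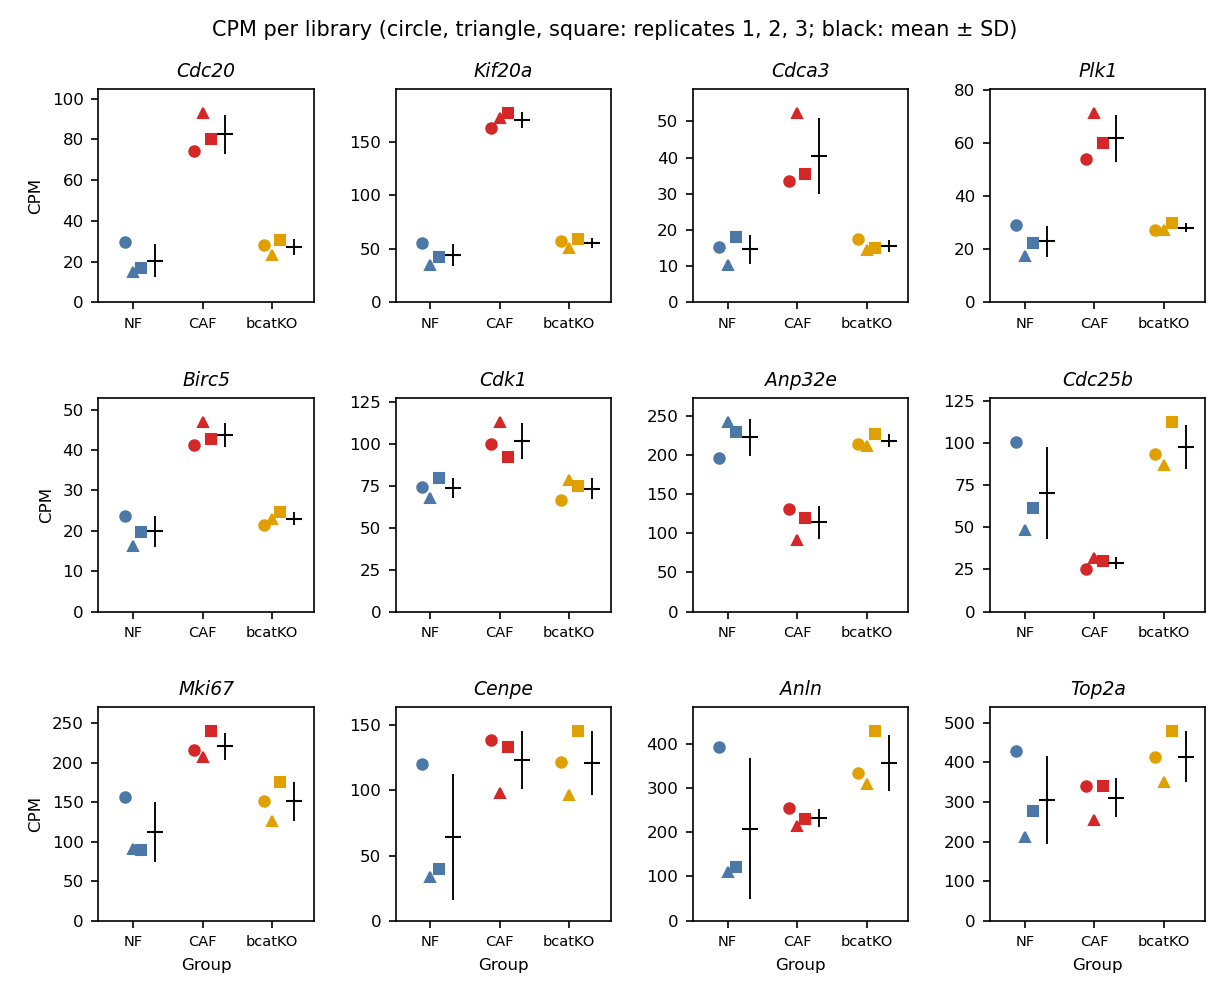
CPM of 12 members in each library, with the mean and SD of 3 libraries per group in black. The 8 members called in both comparisons come first, and for Mki67, Cenpe, Anln and Top2a NF replicate 1 lies above NF replicates 2 and 3.

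Kinesins move along microtubules or take them apart, and 7 of the 10 were higher in CAF than in NF (Kif11, Kif20a, Kif20b, Kif2c, Kif4, Kif14 and Kif22). Kif20a, a motor of the central spindle needed for cytokinesis, was at 55.8, 34.8 and 42.3 CPM in NF, 163, 172 and 177 CPM in CAF and 57.7, 50.4 and 59.1 CPM in bcatKO_CAF. The gap between the lowest CAF library and the highest other library was wider than the whole range of the other 6. The log2 fold change was 1.95 ± 0.18 against NF (edgeR adjusted p = 3.74e-05), the smallest adjusted p of the members, and -1.61 ± 0.18 for bcatKO_CAF against CAF (edgeR adjusted p = 0.000111). Kif2c, which depolymerises microtubules at kinetochores, was at 29.1, 12.2 and 17.4 CPM in NF, 45.5, 46.5 and 45.8 CPM in CAF and 28.4, 25.4 and 34.9 CPM in bcatKO_CAF. The CAF values of Kif2c hardly varied, and the log2 fold change was 1.23 ± 0.28 against NF (edgeR adjusted p = 0.00651) and -0.64 ± 0.28 for bcatKO_CAF against CAF (edgeR adjusted p = 0.0884, and 0.00916 without NF replicate 1).

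Kif4, a chromosome-bound motor, was at 55.7, 26.3 and 27.2 CPM in NF, 64.7, 57.1 and 68.6 CPM in CAF and 51.2, 40.8 and 59.4 CPM in bcatKO_CAF. NF replicate 1 came close to the lowest CAF library. Its log2 fold change of 0.80 ± 0.29 against NF (edgeR adjusted p = 0.0496) missed the threshold in 11 settings, including the leaving out of each library but NF replicate 1, with values from 0.61 to 1.26. Kif22, a chromosome-arm motor, was at 20.2 to 38.1 CPM in NF, 47.0 to 55.0 CPM in CAF and 34.3 to 42.3 CPM in bcatKO_CAF, and Kif14, which acts in cytokinesis, at 8.31 to 21.6, 25.1 to 30.3 and 19.1 to 22.6 CPM in the same order of groups. Both had CAF above all other libraries. Kif11, the motor that pushes spindle poles apart, was at 3.67 to 8.04 CPM in NF and 9.11 to 11.0 CPM in CAF, and Kif20b, another cytokinesis motor, at 23.4 to 47.7 CPM in NF and 47.8 to 68.6 CPM in CAF. The calls of Kif11, Kif14 and Kif20b were each lost without CAF replicate 1 or 3 and without NF replicate 2 or 3, and that of Kif11 also without CAF replicate 2 and without bcatKO_CAF replicate 1 or 2; the log2 fold changes ran from 0.73 to 1.39 for Kif11, from 0.86 to 1.67 for Kif14 and from 0.71 to 1.29 for Kif20b. The 3 kinesins not called were Kif15, Kif18a and Kif23, with log2 fold changes of 0.54, 0.19 and 0.87.

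Of the 6 centromere and kinetochore genes, Cenpa alone was called higher in CAF than in NF. Cenpa, the histone variant that marks centromeres, was at 43.7, 12.5 and 17.4 CPM in NF, 51.8, 60.9 and 48.2 CPM in CAF and 28.6, 33.3 and 39.4 CPM in bcatKO_CAF. CAF libraries were the highest, with NF replicate 1 close below. Its log2 fold change of 1.13 ± 0.40 (edgeR adjusted p = 0.0485) missed the threshold in 11 settings, including the leaving out of each library but NF replicate 1, with values from 0.81 to 1.86. Cenpe, a kinetochore motor protein, was at 120, 33.2 and 39.7 CPM in NF, 139, 97.7 and 133 CPM in CAF and 122, 96.4 and 146 CPM in bcatKO_CAF. Both CAF groups and NF replicate 1 shared a range, far above NF replicates 2 and 3. The log2 fold change of Cenpe was 0.94 ± 0.44 for CAF against NF (edgeR adjusted p = 0.121) and -0.02 ± 0.44 for bcatKO_CAF against CAF (edgeR adjusted p = 0.970).

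Cenpf, a large kinetochore protein, and the Ndc80 complex, which couples kinetochores to microtubules, had a similar spread within NF. Cenpf was at 136, 32.4 and 41.8 CPM in NF, 95.3, 75.8 and 98.7 CPM in CAF and 126, 99.7 and 153 CPM in bcatKO_CAF. Ndc80 was at 47.3, 13.9 and 12.6 CPM in NF, 30.2, 29.5 and 33.7 CPM in CAF and 39.9, 35.8 and 54.1 CPM in bcatKO_CAF. For both genes all bcatKO_CAF libraries lay above all CAF libraries, with log2 fold changes of 0.49 and 0.47 that did not pass (adjusted p = 0.419 for each in edgeR). Without NF replicate 1, both passed in this comparison, at log2 fold changes of 0.49 and 0.47 with edgeR adjusted p of 0.0437 and 0.0370. Nuf2 and Spc25, members that belong to the same complex, were at 22.1 to 49.5 and 15.9 to 38.0 CPM in NF, 33.6 to 45.7 and 23.6 to 34.7 CPM in CAF and 41.2 to 57.3 and 28.5 to 40.1 CPM in bcatKO_CAF.

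In the passenger and cytokinesis role, Birc5 was higher in CAF than in NF and the other 5 did not pass. Birc5, the passenger protein survivin, was at 23.8, 16.1 and 19.6 CPM in NF, 41.3, 47.0 and 42.6 CPM in CAF and 21.5, 23.0 and 24.5 CPM in bcatKO_CAF. CAF stood above the other 6 libraries, which overlapped. CAF exceeded NF by a log2 fold change of 1.14 ± 0.17 (edgeR adjusted p = 0.000551) and -0.92 ± 0.16 for bcatKO_CAF against CAF (edgeR adjusted p = 0.00175). Cdca8, the passenger protein borealin that binds survivin, had no such order, with 51.5, 22.5 and 21.2 CPM in NF, 41.7, 45.2 and 46.4 CPM in CAF and 40.2, 42.1 and 63.4 CPM in bcatKO_CAF. Its log2 fold change against NF was 0.49 ± 0.33 (edgeR adjusted p = 0.280).

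Anln, the contractile ring protein anillin, was at 392, 109 and 122 CPM in NF, 255, 214 and 229 CPM in CAF and 334, 309 and 429 CPM in bcatKO_CAF. All bcatKO_CAF libraries were above all CAF libraries, and NF replicate 1 lay among the former. The log2 fold change was 0.16 ± 0.43 for CAF against NF (edgeR adjusted p = 0.796) and 0.62 ± 0.43 for bcatKO_CAF against CAF (edgeR adjusted p = 0.273). Without NF replicate 1, Anln was higher in CAF than in NF, at 1.02 ± 0.17 (edgeR adjusted p = 0.00115), and higher in bcatKO_CAF than in CAF, at 0.62 ± 0.15 (edgeR adjusted p = 0.00684). The central spindle genes Prc1, a microtubule bundler, Racgap1, a GTPase regulator, and Ect2, the exchange factor that Racgap1 recruits, had log2 fold changes of 0.61, 0.59 and 0.23 against NF and did not pass.

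Among spindle and chromosome factors, 5 of 9 were higher in CAF than in NF (Tacc3, Hmmr, Mki67, Cdca2 and Cdca3) and Anp32e was lower. Mki67, the chromosome surface protein Ki-67 used as a proliferation marker, was at 156, 90.9 and 89.8 CPM in NF, 216, 207 and 240 CPM in CAF and 152, 126 and 176 CPM in bcatKO_CAF. CAF was above all other libraries, at a log2 fold change of 0.98 ± 0.23 against NF (edgeR adjusted p = 0.00797), and -0.55 ± 0.23 in bcatKO_CAF against CAF did not pass (edgeR adjusted p = 0.0793) unless NF replicate 1 was left out (edgeR adjusted p = 0.00887). Cdca3, a protein that takes part in degrading the kinase Wee1, was at 15.3, 10.4 and 18.1 CPM in NF, 33.4, 52.4 and 35.3 CPM in CAF and 17.5, 14.4 and 14.9 CPM in bcatKO_CAF. Every CAF library was above every other, with log2 fold changes of 1.47 ± 0.25 against NF (edgeR adjusted p = 0.00136) and -1.37 ± 0.25 for bcatKO_CAF against CAF (edgeR adjusted p = 0.00189).

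Anp32e, a chaperone that removes the histone variant H2A.Z from chromatin, was the most abundant member per length, at 51.8 CPM per kb of exon. It was at 195, 242 and 229 CPM in NF, 131, 90.9 and 119 CPM in CAF and 214, 212 and 227 CPM in bcatKO_CAF. The CAF libraries were the lowest, and NF replicate 1 was the lowest NF library here. In CAF, Anp32e was lower than in NF at a log2 fold change of -0.97 ± 0.16 (edgeR adjusted p = 0.00128) and 0.94 ± 0.16 for bcatKO_CAF against CAF (edgeR adjusted p = 0.00147). Top2a, the topoisomerase that untangles chromosomes, was at 429, 212 and 278 CPM in NF, 340, 253 and 340 CPM in CAF and 415, 350 and 479 CPM in bcatKO_CAF. The NF range of Top2a spanned the CAF range, and the log2 fold change against NF was 0.02 ± 0.26 (edgeR adjusted p = 0.957).

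Hmmr, a spindle assembly protein, was at 59.0, 21.4 and 27.8 CPM in NF, 86.9, 63.2 and 85.2 CPM in CAF and 56.8, 54.3 and 72.5 CPM in bcatKO_CAF. CAF was above NF and overlapped bcatKO_CAF. Its log2 fold change against NF was 1.12 ± 0.34 (edgeR adjusted p = 0.0276), and the call was lost without CAF replicate 1 or 3 and without NF replicate 2 or 3, with values from 0.85 to 1.69 over all settings. Tacc3, a spindle protein recruited by Aurora A, was at 31.2 to 71.8 CPM in NF and 81.7 to 91.9 CPM in CAF, and Cdca2, a phosphatase subunit on anaphase chromatin, at 16.6 to 26.0 CPM in NF and 29.8 to 31.6 CPM in CAF. Their calls were lost without any 1 CAF library, NF replicate 2 or 3, or bcatKO_CAF replicate 1, with log2 fold changes from 0.64 to 1.32 for Tacc3 and from 0.40 to 0.76 for Cdca2. Tpx2, which activates Aurora A on spindles, and the microtubule protein Ckap2 did not pass, at 0.48 ± 0.40 and 0.76 ± 0.44.

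NF was the group with the widest spread in the mitotic genes. The median log2 CPM of the members was 5.58, 4.46 and 4.64 in NF replicates 1 to 3, 5.96, 5.76 and 5.92 in CAF and 5.36, 5.27 and 5.72 in bcatKO_CAF. Every CAF library had a higher median than every bcatKO_CAF and NF library, and NF replicates 2 and 3 had the lowest. The SD of these medians (n = 3) was 0.60 in NF, 0.10 in CAF and 0.24 in bcatKO_CAF. Relative to the median member of the same library, a scale chosen after the values were seen, the 3 CAF libraries lay above all 6 others in 5 members and below them in 16, and overlapped them in 28. Cdc20 was at 0.25 to 0.78 log2 units in CAF and -0.79 to -0.56 in the other 6, given here as a description with no test. Kif20a was 1.39 to 1.67 above the median member in CAF and 0.16 to 0.76 above it elsewhere. Top2a was 2.22 to 2.49 above it in CAF and 3.17 to 3.47 above it in the other 6 libraries.

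**Figure D5:**
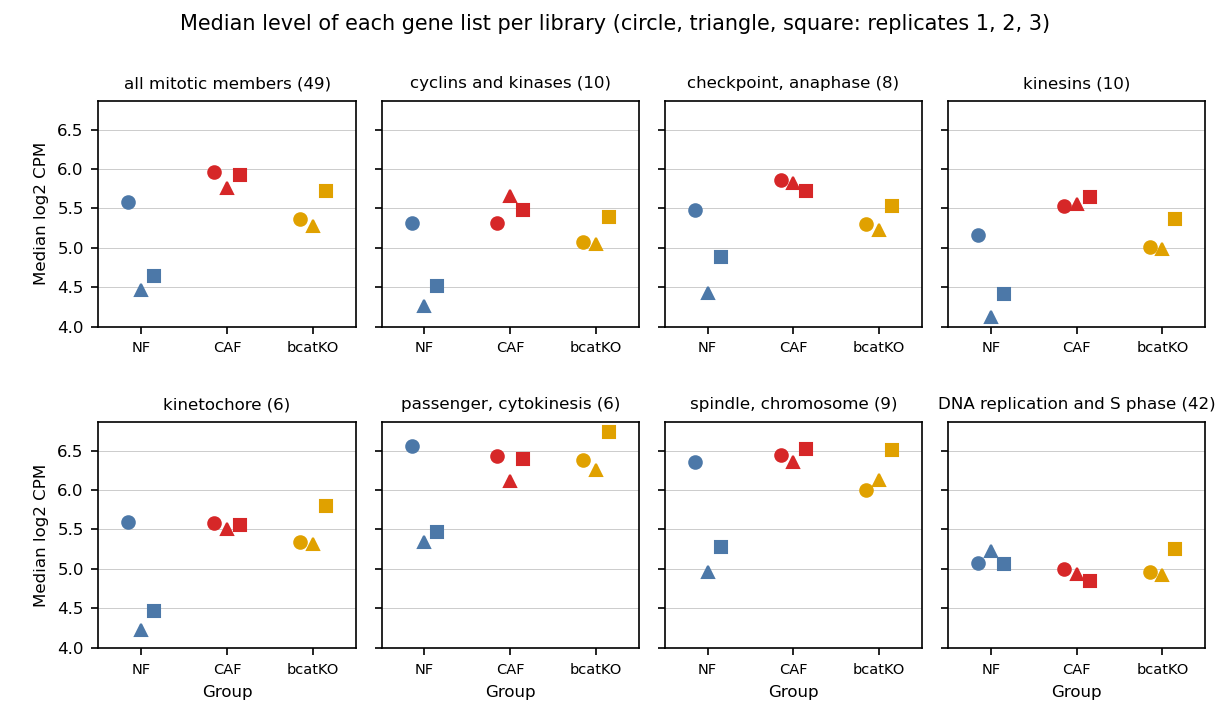
Median log2 CPM of all members, of each of the 6 roles and of 42 S phase genes in each library, with the number of genes in brackets. NF replicates 2 and 3 are lowest in each mitotic panel, and the S phase medians of all 9 libraries lie between 4.84 and 5.25.

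Against NF, bcatKO_CAF showed no member that passed. With edgeR, 0 of 14314 genes were called (0%), with a smallest adjusted p of 0.603; 685 genes and 0 members had an unadjusted p under 0.05, DESeq2 called 6 genes and 0 members, and limma-voom called 0. The members' log2 fold changes ran from -0.03 to 0.91 with a median of 0.48, against -0.03 over all tested genes, and 47 of 49 were positive. In no member did the 3 bcatKO_CAF libraries lie wholly above or below the 3 NF libraries, a separation that 3.23% and 3.64% of all tested genes showed. All 3 bcatKO_CAF libraries did lie above NF replicates 2 and 3 in 44 members, against 27.4% of all tested genes.

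Leaving out NF replicate 1 changed this comparison. Then 2654 genes were called, and 41 members were higher in bcatKO_CAF (83.7%, against 10.96% of all genes tested), 0 were lower and the median log2 fold change was 0.93. The largest values were those of Cdc25c at 1.94 ± 0.21 (edgeR adjusted p = 0.00206), Nek2 at 1.91 ± 0.39 (edgeR adjusted p = 0.0144) and Cenpf at 1.78 ± 0.22 (edgeR adjusted p = 0.00273). The 8 members that were still not called included Cdk1, at 0.01 ± 0.14, Birc5 at 0.38 ± 0.15, Cdca3 at 0.15 ± 0.27 and Plk1 at 0.51 ± 0.17, all called lower in bcatKO_CAF than in CAF with every library in the fit. Cdc20 and Kif20a, called lower there too, were higher in bcatKO_CAF than in NF without NF replicate 1. Their log2 fold changes were 0.79 ± 0.17 and 0.55 ± 0.14 (edgeR adjusted p = 0.0166 and 0.0271). The group of 2 NF libraries in the fit without NF replicate 1 is assumed to vary like the other groups.

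Regulators of mitotic transcription and other cell cycle genes were read from lists chosen for their roles. A list of 16 DREAM, MuvB and FoxM1 regulators also held the NF-Y genes Nfya, Nfyb and Nfyc. Of these 16, 2 were higher (12.5%, against 20.0% of all tested genes) and 3 lower (18.8%, against 19.8%) in CAF than in NF. In bcatKO_CAF against CAF, 3 were higher (18.8%, against 21.4%) and 4 lower (25%, against 22.7%), with Nfyc among the lower. Foxm1, which activates late cell cycle genes, was at 68.0, 37.4 and 29.2 CPM in NF, 76.4, 90.9 and 78.9 CPM in CAF and 58.0, 57.1 and 72.4 CPM in bcatKO_CAF. CAF was highest, at a log2 fold change of 0.87 ± 0.28 against NF (edgeR adjusted p = 0.0328), a call lost without any 1 CAF library, bcatKO_CAF replicate 1, or NF replicate 2 or 3, with values from 0.64 to 1.31. For bcatKO_CAF against CAF, Foxm1 did not pass, at -0.39 ± 0.28 (edgeR adjusted p = 0.276). Mybl2, the gene of B-Myb, did not pass against NF, at 0.39 ± 0.16 (edgeR adjusted p = 0.0792). It was lower in bcatKO_CAF than in CAF, at -0.50 ± 0.16 (edgeR adjusted p = 0.0311), a call lost in 8 of 16 settings. Rbl1, the DREAM pocket protein p107, was lowest in CAF, at 65.8, 48.7 and 54.0 CPM in NF, 31.1, 21.4 and 28.0 CPM in CAF and 56.5, 61.1 and 78.9 CPM in bcatKO_CAF, with log2 fold changes of -1.06 ± 0.20 and 1.29 ± 0.20 (edgeR adjusted p = 0.00233 and 0.000799). Without CAF replicate 2 or NF replicate 2, 0 of the 16 were higher in CAF. Without CAF replicate 1 or 2, or any 1 bcatKO_CAF library, 1 was lower in bcatKO_CAF. Without NF replicate 1, 6 of the 16 were higher, against 25.8% of all genes tested then.

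A list of 7 E2F activators and repressors held Rb1, the retinoblastoma gene, besides E2F genes, while E2f4 and E2f5 were counted among the DREAM regulators. Of these 7, E2f7 was higher in CAF than in NF (14.3%, against 20.0% of all tested genes) and 3 were lower (42.9%, against 19.8%). In bcatKO_CAF against CAF, 4 were higher (57.1%, against 21.4%), with Rb1 among them, and 1 lower (14.3%, against 22.7%). Without CAF replicate 2 or 3, or bcatKO_CAF replicate 1 or 3, 3 were higher. E2f8, a repressor that acts with E2f7, was at 107, 125 and 223 CPM in NF, 19.3, 21.4 and 20.0 CPM in CAF and 126, 127 and 99.9 CPM in bcatKO_CAF. The CAF libraries of E2f8 were far below the others, with a log2 fold change of -2.90 ± 0.27 against NF (edgeR adjusted p = 4.04e-05) and 2.54 ± 0.27 for bcatKO_CAF against CAF (edgeR adjusted p = 8.6e-05). E2f7 was at 10.6 to 13.2 CPM in NF, 20.1 to 24.2 CPM in CAF and 11.1 to 12.9 CPM in bcatKO_CAF. E2f1, an activator of S phase genes, was at 73.7 to 85.7 CPM in NF, 41.5 to 55.6 CPM in CAF and 77.1 to 81.8 CPM in bcatKO_CAF. Both separated CAF from the other 6 libraries, in opposite directions.

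Of 42 DNA replication and S phase genes, 5 were higher (11.9%, against 20.0% of all tested genes) and 12 lower (28.6%, against 19.8%) in CAF than in NF, with a median log2 fold change of -0.34. In bcatKO_CAF against CAF, 10 were higher (23.8%, against 21.4%) and 7 lower (16.7%, against 22.7%), with a median of 0.19. Without NF replicate 1, 17 of 42 were lower in CAF than in NF, against 21.1% of all genes tested then. Without CAF replicate 1 or 3, 7 were lower, and without CAF replicate 3, 3 were higher. Against CAF, leaving out CAF replicate 1, CAF replicate 3 or bcatKO_CAF replicate 3 gave 6 higher in bcatKO_CAF. Pcna, the sliding clamp of DNA polymerase, was at 60.2, 76.8 and 75.7 CPM in NF, 38.5, 31.8 and 37.0 CPM in CAF and 55.5, 58.5 and 53.8 CPM in bcatKO_CAF, with log2 fold changes of -0.99 ± 0.14 and 0.64 ± 0.14 (edgeR adjusted p = 0.000565 and 0.00566). Rrm2, a subunit of ribonucleotide reductase, went the other way, at 54.9, 80.9 and 94.2 CPM in NF, 161, 130 and 156 CPM in CAF and 66.6, 61.9 and 69.6 CPM in bcatKO_CAF. For Pcna and for Rrm2 the CAF libraries lay outside the range of the other 6. The library medians of the S phase list were 5.07, 5.23 and 5.06 log2 CPM in NF, 5.0, 4.94 and 4.84 in CAF and 4.95, 4.93 and 5.25 in bcatKO_CAF, so that NF replicate 1 did not stand above the other NF libraries in this list.

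A list of 15 genes held subunits of the anaphase-promoting complex, the target of Cdc20, and its ubiquitin-conjugating enzyme Ube2s, which was called in neither comparison. Of these, 7 were higher (46.7%, against 20.0% of all tested genes) and 1 lower (6.67%, against 19.8%) in CAF than in NF. In bcatKO_CAF against CAF, 1 was higher (6.67%, against 21.4%) and 6 lower (40%, against 22.7%). Cdc16, a scaffold subunit, was at 78.9, 76.1 and 102 CPM in NF, 145, 138 and 149 CPM in CAF and 84.0, 90.6 and 72.6 CPM in bcatKO_CAF. Its CAF libraries were above all others, with log2 fold changes of 0.75 ± 0.15 and -0.80 ± 0.15 (edgeR adjusted p = 0.00339 and 0.00227). Without CAF replicate 3, 4 genes of this list were higher in CAF and 4 were lower in bcatKO_CAF, and 4 were lower without each bcatKO_CAF library. The single call in the other direction was lost against NF in each leave-out but those of CAF replicate 2 and NF replicate 3, and against CAF without CAF replicate 1 or 3 or bcatKO_CAF replicate 3.

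Condensin and cohesin shape and hold together chromosomes, and a list of 20 genes held their subunits and regulators of cohesin such as Espl1, Wapl and Sgo1. Of these, 2 were higher and 2 lower in CAF than in NF (10% each, against 20.0% and 19.8% of all tested genes). Without NF replicate 1, 4 of 20 were higher and 2 lower, against 23.7% and 21.1% of all genes tested then. Leaving out each other library in turn gave 1 lower, and 1 higher without CAF replicate 2 or NF replicate 2. In bcatKO_CAF against CAF, 5 were higher (25%, against 21.4%) and 1, Smc2, was lower (5%, against 22.7%). Without CAF replicate 1 or 3 or bcatKO_CAF replicate 3, 1 was higher. Without NF replicate 1, 2 of 20 were lower, against 27.4% of all genes tested then. Smc2, a condensin core protein, was at 93.9 to 109 CPM in NF, 133 to 202 CPM in CAF and 102 to 113 CPM in bcatKO_CAF.

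Genes listed for the same structures that are no members were counted too. Of 32 other kinetochore and centromere genes, 4 were higher (12.5%, against 20.0% of all tested genes) and 1 lower (3.12%, against 19.8%) in CAF than in NF, and of 26 other spindle and cytokinesis genes 2 were higher (7.69%) and 3 lower (11.5%). Without NF replicate 1 the numbers higher in CAF were 12 of 32 and 16 of 26, against 23.7% of all genes tested then. Without CAF replicate 3 they were 2 and 2, and the share of all genes in that fit is not given here. In bcatKO_CAF against CAF, the kinetochore list had 2 higher (6.25%, against 21.4%) and 4 lower (12.5%, against 22.7%), and the spindle list 3 higher (11.5%) and 2 lower (7.69%). Leaving out single libraries gave 0 to 5 kinetochore genes in each direction, with 0 higher without CAF replicate 2 or bcatKO_CAF replicate 3, and 0 lower without CAF replicate 3 or bcatKO_CAF replicate 1 or 2. Without NF replicate 1, 5 of 32 were higher and 5 lower, against 25.8% and 27.4% of all genes tested then. Leaving out single libraries gave 3 to 4 spindle genes higher and 1 to 2 lower, with 1 lower without CAF replicate 2 or bcatKO_CAF replicate 1. Hjurp, the chaperone that loads Cenpa, was at 139, 98.2 and 96.2 CPM in NF, 170, 194 and 185 CPM in CAF and 127, 129 and 148 CPM in bcatKO_CAF, with CAF above the other 6 and a log2 fold change of 0.72 ± 0.17 against NF (edgeR adjusted p = 0.00744). Plk2, a polo-like kinase of centriole duplication, was at 118, 79.2 and 42.2 CPM in NF, 418, 375 and 280 CPM in CAF and 115, 102 and 130 CPM in bcatKO_CAF. Plk3, another relative of Plk1, had the reverse order, at 97.3 to 161 CPM in NF, 21 to 41.8 CPM in CAF and 78 to 105 CPM in bcatKO_CAF. Kif21a, a kinesin counted in the spindle list, was also lowest in CAF, at means of 36.8 CPM in NF, 8.02 in CAF and 42.9 in bcatKO_CAF. Its log2 fold changes were -2.20 ± 0.15 against NF and 2.42 ± 0.15 for bcatKO_CAF against CAF (edgeR adjusted p = 7.61e-06 and 4.7e-06). Among 19 tested regulators of mitotic entry and exit, 2 were higher and 2 lower in CAF than in NF (10.5% each, against 20.0% and 19.8% of all tested genes). Without NF replicate 1 the counts were 6 and 1, against 23.7% and 21.1% of all genes tested then. Over the other libraries left out the counts were 1 to 2 and 1 to 3. In bcatKO_CAF against CAF, 4 were higher (21.1%, against 21.4%) and 2 lower (10.5%, against 22.7%), with 3 to 4 and 1 to 3 over the libraries left out. Cdkn1c, the cyclin-dependent kinase inhibitor p57, was at 0.633 to 1.92 CPM in NF, 20.9 to 34.3 CPM in CAF and 0.231 to 0.778 CPM in bcatKO_CAF. Every CAF library of Cdkn1c was far above the others, with a log2 fold change of 4.60 ± 0.51 against NF (edgeR adjusted p = 0.000121).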

How the data were processed

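RNA-seq of 9 mouse fibroblast libraries was used as the authors' deposited counts, raw read counts per Ensembl gene with no normalisation. The series table equalled the single-sample files (0 cells differed, 0 sample columns unused). The submitters' processing notes name mm10, bcl2fastq, TopHat and edgeR. How reads were counted, on which strand and with which annotation is not given in the sources used here, so values of genes that overlap on opposite strands or have near-identical copies are uncertain. Source and genotype labels gave the groups; replicates were numbered in record order and pair nothing.

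Genes passing filterByExpr (14314) were scaled by TMM and fitted together with edgeR 4.0.16 (R 4.3.3), quasi-likelihood, group as the only term, all 9 libraries. P-values were adjusted by Benjamini-Hochberg over all genes and called under 0.05. SEs come from the F statistic. CPM per kb uses merged exon length. Coordinates are GRCm38, the assembly behind mm10. Alternatives were RLE scaling, total counts, no filter, CPM of at least 1 in 3 libraries, DESeq2 1.42.0, limma-voom (limma 3.58.1), only the 6 libraries compared and leaving out each library; the same settings for lists of other genes were added after seeing the data. The fit was tested on simulated counts with far fewer changed genes than were called in CAF against NF. No simulated library was set apart from its group, so that test does not check the scaling or shared spread in these data.

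Members given per library were, in each role, the 2 called members with the largest change and the most abundant, plus those called elsewhere or against their role's direction; others may be named. Up to 3 called genes of each other list qualified. Members and lists were chosen with earlier results of these data known. Printed promoters beyond the most abundant member of each role were chosen after values were seen. Bub3, Ect2 and Prc1 had 2 promoters each, of which the first listed was used; 6 members had no promoter entry.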

Additional observations from a re-analysis of the deposited data

How the results depend on the processing

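Of 23 member calls in CAF against NF, 12 held in all 16 alternative settings, and of 8 in bcatKO_CAF against CAF, 7 did; no named member changed direction while called. Leaving out single libraries gave 11 to 44 members higher in CAF than in NF, always 2 lower, and a median log2 fold change of 0.41 to 1.22. It gave 2 to 6 members higher and 5 to 16 lower in bcatKO_CAF against CAF. For bcatKO_CAF against NF it gave 0 to 2654 genes called, 0 to 41 members higher and a median of 0.26 to 0.93. Each upper value came without NF replicate 1; the cause was not tested. With only the 6 libraries compared, 10 members were higher in CAF than in NF, and 6 were higher and 17 lower in bcatKO_CAF against CAF. Member counts are set beside the share of all genes only for the main fit and that without NF replicate 1. DESeq2 called 6 genes in bcatKO_CAF against NF. Total counts moved the median of all genes to -0.20 for CAF against NF and 0.12 for bcatKO_CAF against CAF, from -0.04 and -0.01, and gave 15 members higher in CAF. No paired analysis was possible because the labels carry no replicate numbers. With 3 libraries a group, an exact permutation test of a single gene cannot go below p = 0.1. Low members such as Nek2 and Kif11 rest on fewer reads, and Cks2 had too few counts to be tested; how reads shared by near-identical copies were counted is not given in the sources used here, so its low counts are uncertain.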
